A study of Mus musculus with 11 samples.

Results

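The interferon-stimulated and MHC class I genes of the mouse dorsal root ganglion (DRG) described here were 39 genes fixed by name. Each was found by its symbol in exactly 1 row of a table of 36670 genes. Type I interferons signal through a receptor that activates JAK kinases and STAT transcription factors, and a complex that holds STAT2 and IRF9 then switches on a large set of antiviral genes. Interferon gamma acts through a separate receptor on an overlapping set that includes the guanylate-binding proteins, the immunity-related GTPases and the genes that load peptides onto MHC class I. Many of these genes are transcribed at a low resting level in tissues that hold no infection.

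Whole DRGs, where sensory neurons have their cell bodies, were profiled by stranded poly(A) RNA-Seq. There were 3 WT control libraries, 3 WT libraries taken 4 weeks after paclitaxel (PTX, a chemotherapy drug that causes neuropathic pain), 3 *Gpr37l1* KO control libraries and 2 *Gpr37l1* KO libraries taken 4 weeks after PTX. *Gpr37l1* encodes an orphan receptor of satellite glial cells (SGCs), and the KO line carried a mutant allele on a C57BL/6 background. Replicate 3 of each group was labelled female and all other replicates male, so an effect of sex cannot be separated from that of the replicate 3 libraries. The labels give neither the age of the mice, nor the PTX dose, nor mouse identifiers, so p-values measure the spread between these libraries. The deposited FPKM values are scaled for gene length and library size, and levels below are FPKM. Library totals ran from 52735648 to 80348732 estimated counts, with 54914928 and 56747335 in the KO PTX libraries. *Gpr37l1* itself was at 14.6 to 35.7 FPKM in the WT libraries, 0.21 to 0.29 FPKM in KO controls, and 0.60 and 1.15 FPKM in KO PTX libraries. Whole tissue was sequenced, so fewer cells of a type and less RNA per cell cannot be told apart.

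The members fell into 9 role groups: signal and transcription (*Irf7*, *Irf9*, *Stat2*), sensors (*Ifih1*, *Zbp1*, *Trim25*), IFIT proteins (*Ifit1*, *Ifit2*, *Ifit3*), oligoadenylate synthetases (*Oas1a*, *Oas2*, *Oasl2*), the ISG15 system (*Isg15*, *Usp18*), other effectors (*Rsad2*, *Mx1*, *Bst2*, *Ifitm3*, *Ifi44*, *Ifi35*, *Ifi27*, *Ifi27l2a*, *Rtp4*, *Xaf1*, *Lgals3bp*), PARP and DTX proteins (*Parp9*, *Parp14*, *Dtx3l*), GTPases (*Gbp2*, *Gbp3*, *Gbp7*, *Igtp*, *Irgm1*) and MHC class I (*H2-K1*, *H2-D1*, *B2m*, *Tap1*, *Psmb8*, *Psmb9*). Several sit in gene clusters of mm10, the build named in the submitters' processing notes. The 3 *Ifit* genes lie on chromosome 19, the 3 guanylate-binding protein genes on chromosome 3, and *H2-K1*, *H2-D1*, *Tap1*, *Psmb8* and *Psmb9* within the MHC on chromosome 17.

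The complex with STAT2 and IRF9 binds the interferon-stimulated response element (ISRE), whose core was searched as GAAANNGAAA on both strands of RefSeq promoters (GRCm38.p6, 250 bases before to 50 bases after the start site). Of the 39 members, 30 had a promoter in the RefSeq table, and those without an entry were *Parp14*, *Oas2*, *Parp9*, *Rtp4*, *Ifi27*, *Usp18*, *Zbp1*, *Ifi27l2a* and *Mx1*. The ISRE core was present in 15 of 30 members, against 3.44% of all 32851 promoters of the same length. The gamma-activated sequence, an element of genes induced by interferon gamma, searched as TTCNNNGAA, was present in 8 of 30 (26.7%), against 8.30% of all promoters. Members were counted by gene and the background by promoter, and some members had several promoters. As the members were listed as interferon-stimulated genes, these shares describe the list and are no result of the libraries. Members lower in WT PTX than in WT control libraries included *Tap1*, *Oasl2* and *H2-D1*, which had a promoter entry and no ISRE core. *Ifitm3*, also lower, held ISRE cores only after the start site. Upstream bases end at or before the first base of the gene and read 5′ to 3′ on the strand of the gene. ISRE cores of either strand are in capitals, with overlapping cores merged. Bases are given for 7 members, each with an ISRE core before the first base of the gene. They are Ifit1 (chr19:34640729-34640870, plus strand), Ifit3 (chr19:34583369-34583528, plus strand), Isg15 (chr4:156200819-156200978, minus strand), Oas1a (chr5:120907526-120907685, minus strand), Bst2 (chr8:71537473-71537632, minus strand), Igtp (chr11:58199396-58199555, plus strand) and B2m (chr2:122147527-122147685, plus strand).
Ifit1: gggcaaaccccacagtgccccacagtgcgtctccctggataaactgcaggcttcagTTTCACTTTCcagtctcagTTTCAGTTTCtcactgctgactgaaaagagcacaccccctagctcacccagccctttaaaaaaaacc
Ifit3: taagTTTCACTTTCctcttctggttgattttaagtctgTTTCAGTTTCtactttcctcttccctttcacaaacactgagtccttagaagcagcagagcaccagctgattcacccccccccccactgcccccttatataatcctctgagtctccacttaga
Isg15: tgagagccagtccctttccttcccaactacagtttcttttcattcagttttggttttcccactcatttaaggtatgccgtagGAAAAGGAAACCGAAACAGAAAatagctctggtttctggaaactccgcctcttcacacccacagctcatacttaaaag
Oas1a: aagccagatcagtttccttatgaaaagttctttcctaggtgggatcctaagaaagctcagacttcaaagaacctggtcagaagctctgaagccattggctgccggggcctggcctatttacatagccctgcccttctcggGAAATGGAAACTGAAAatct
Bst2: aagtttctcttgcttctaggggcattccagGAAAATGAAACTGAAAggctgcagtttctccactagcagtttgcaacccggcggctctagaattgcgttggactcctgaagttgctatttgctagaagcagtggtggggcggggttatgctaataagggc
Igtp: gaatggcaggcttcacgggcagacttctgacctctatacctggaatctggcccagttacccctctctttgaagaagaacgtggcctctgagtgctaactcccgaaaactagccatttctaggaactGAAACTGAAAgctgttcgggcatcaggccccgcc
B2m: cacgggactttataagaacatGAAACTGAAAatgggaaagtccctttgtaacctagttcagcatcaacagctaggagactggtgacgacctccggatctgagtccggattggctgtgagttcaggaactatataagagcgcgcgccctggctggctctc
*Isg15* held 3 overlapping cores, *Oas1a* and *Bst2* 2 overlapping cores each, and *Ifit1* and *Ifit3* 2 separate cores each. A match is a description of these letters and not a measured binding site.

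MHC class I held the highest and some of the lowest levels of the 39 members. *B2m*, the invariant light chain of MHC class I, had the highest mean over the 11 libraries, 189 FPKM, followed by the heavy chain *H2-D1* at 76.5 FPKM. The mitochondrial protein gene *Ifi27* (73.7 FPKM) and the membrane protein gene *Ifitm3* (33.1 FPKM), which blocks viral entry, came next. The antigen peptide transporter *Tap1* had a mean of 1.87 FPKM and the immunoproteasome subunit *Psmb9* 0.905 FPKM. *Oas2*, *Mx1*, *Ifi44* and *Zbp1* had means of 0.262 to 0.395 FPKM, below the mean of 0.5 FPKM required for testing, so that 35 of the 39 members were tested among 15087 genes.

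The WT controls held the highest level of most members. Of the 35 tested members, 30 were highest in a WT control library, against 40.9% of all genes tested, and 7 were lowest in a WT control, against 43.0%. WT control 1 was the highest library for 10 members, WT control 2 for 14 and WT control 3 for 6. No tested member was highest in a WT PTX library, and 5 were highest in a KO library. All values of the 3 WT controls lay above those of the other 8 libraries for *Usp18*, *Tap1*, *Bst2*, *Ifit3* and *Igtp*, 5 of 35 members (14.3%), against 1.28% of all genes, and below them for 0 members, against 1.29%. By this rule a gene cannot drop out when a library is left out, so these 5 genes remained and the number could only rise. With 1 library left out the number of members was 5 to 10 and the share of all genes 1.37% to 7.34%. The number was 10 without WT control 1 and 10 without WT control 3, which are the departures beyond 1.5 times.

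**Figure D1:**
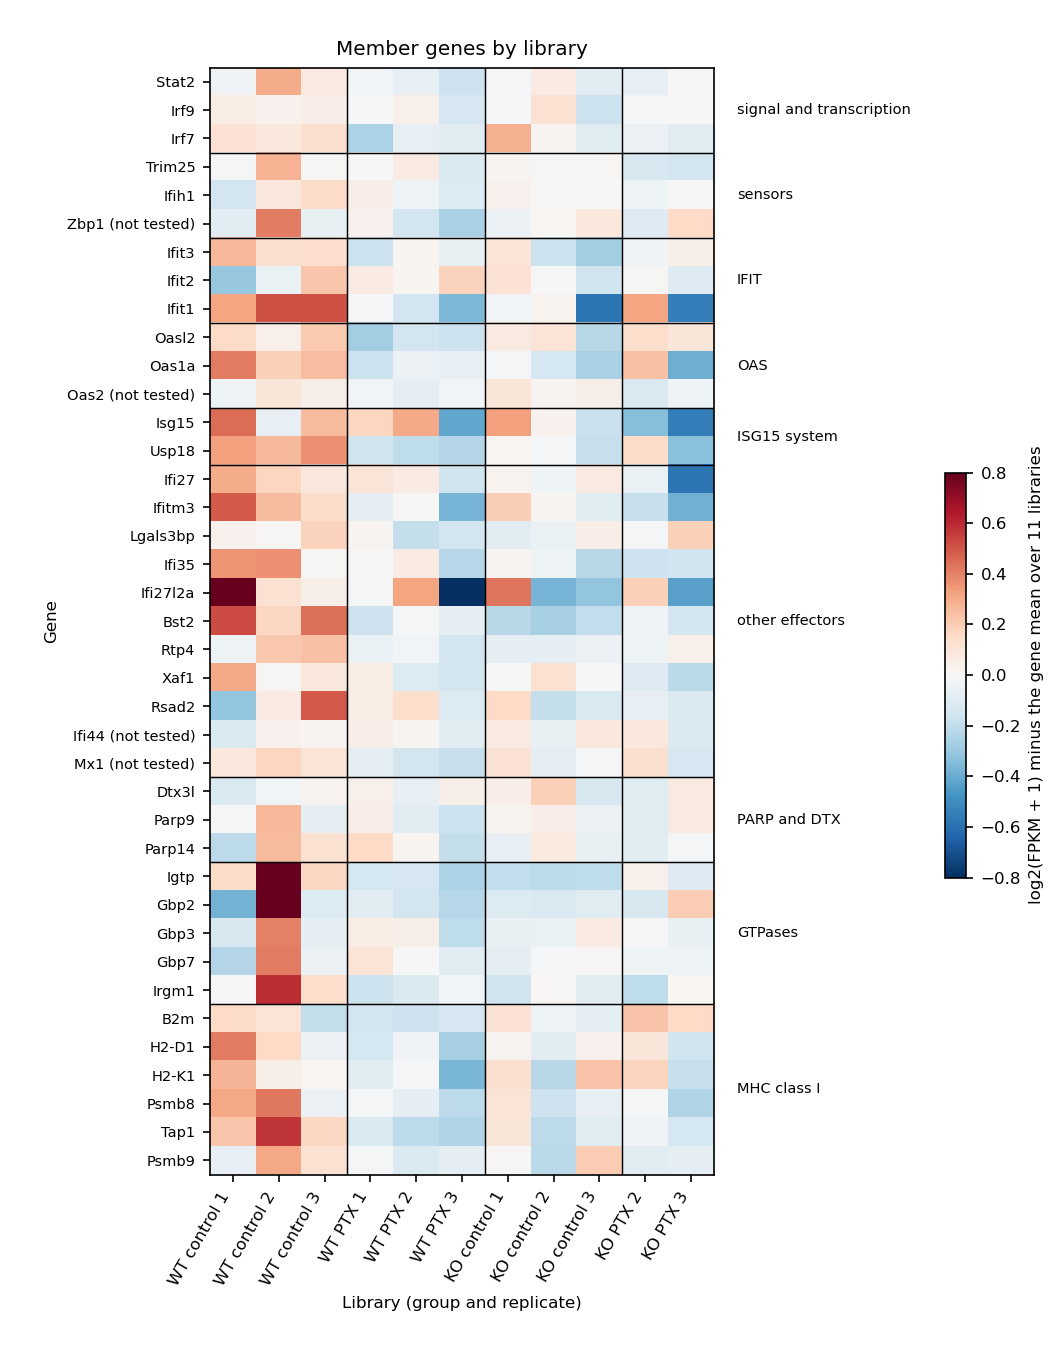
Heat map of the 39 members (rows, grouped by role) in the 11 libraries (columns), as log2(FPKM + 1) minus the mean of the gene over the libraries, with colours cut at -0.8 and 0.8. The 3 WT control columns hold the highest value of 30 of the 35 tested members, and WT control 2 stands out for the GTPases *Gbp2*, *Igtp* and *Irgm1*.

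The comparison of WT PTX with WT control asks what differs in the ganglion 4 weeks after chemotherapy. Nearly all members were lower after PTX. The log2 fold change was below 0 for 33 of 35 members (94.3%), against 51.2% of all genes, with a median of -0.30, against -0.01 over all genes. The range was -0.93 for *Usp18* to 0.13 for *Ifit2*. No member passed the threshold with edgeR's quasi-likelihood test after Benjamini-Hochberg adjustment (0 of 35, where 0.00663% of all genes were called), and adjusted p ran from 0.203 to 0.875. At an unadjusted p under 0.05, 16 members (45.7%) were lower and 0 higher, against 6.87% and 6.59% of all genes. The DESeq2 test on the same counts called 8 members (22.9%), all lower, against 1.1% of all genes. WT PTX and WT control libraries did not overlap for 12 members (34.3%), all lower, against 7.37% of all genes, and for 0 higher, against 6.81%. The number without overlap was 19 without WT PTX 1. By this rule neither that number nor the share of all genes can fall when a library is left out, and that share is not given here. The number called by DESeq2 was 5 without WT control 1 or KO control 1, and was 1, 2 and 3 without WT PTX 1, 2 and 3. *Tap1* was called in each of these fits. The share of all genes called in them is not given here, so these numbers cannot be set against the background.

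Among the IFIT proteins, which bind foreign RNA and block its translation, *Ifit1* was at 8.12, 9.45 and 9.44 FPKM in WT controls and 6.31, 5.60 and 4.73 FPKM in WT PTX libraries. KO controls were at 6.24, 6.48 and 3.89 FPKM, and KO PTX libraries at 8.12 and 4.03 FPKM. WT controls stood above the WT PTX and KO control libraries without overlap, and KO PTX libraries spanned both. The log2 fold change of *Ifit1* for PTX in WT was -0.73 ± 0.19 (SE, edgeR adjusted p = 0.238, DESeq2 adjusted p = 0.00981), and without WT control 3 it was -0.46. *Ifit3* was at 14.5, 13.01 and 13.1 FPKM in WT controls, 10.4, 12.02 and 11.3 in WT PTX, 12.9, 10.4 and 9.58 in KO controls and 11.6 and 12.3 in KO PTX. Its difference was smaller, with a log2 fold change of -0.27 ± 0.12 (edgeR adjusted p = 0.368), and its near-identical copy *Ifit3b* can share its reads. *Ifit2* was the exception of the family, with 7.40 to 11.1 FPKM in WT controls and 9.52 to 10.8 FPKM after PTX, and overlapped fully between these groups.

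The oligoadenylate synthetase family senses double-stranded RNA. *Oas1a* was at 1.86, 1.44 and 1.54 FPKM in WT controls, 0.90, 1.07 and 1.04 in WT PTX, 1.12, 0.94 and 0.79 in KO controls and 1.52 and 0.63 in KO PTX. All WT controls lay above the WT PTX and KO control libraries, while the KO PTX pair differed by more than either of these groups. Its log2 fold change for PTX in WT was -0.68 ± 0.27 (edgeR adjusted p = 0.348), and *Oas1g* is a close copy. *Oasl2*, a family member with ubiquitin-like domains, was at 7.94, 7.28 and 8.32 FPKM in WT controls, 5.65, 6.25 and 6.16 in WT PTX, 7.46, 7.68 and 5.91 in KO controls and 7.87 and 7.63 in KO PTX. Here the WT PTX libraries were low and both KO PTX libraries were within the range of WT controls. The log2 fold change for PTX in WT was -0.39 ± 0.11 (edgeR adjusted p = 0.244, DESeq2 adjusted p = 0.0452).

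In the ISG15 system the protease *Usp18* differed more than the modifier it removes, *Isg15*, for PTX in WT and for KO in control. The modifier differed more for PTX in KO (log2 fold change -0.57, against -0.01 for *Usp18*) and for KO in PTX (-0.52, against 0.25). *Usp18*, which removes ISG15 from proteins and restrains the type I interferon receptor, was at 1.74, 1.62 and 1.82 FPKM in WT controls and 0.96, 0.90 and 0.86 FPKM in WT PTX. It was at 1.21, 1.16 and 0.92 FPKM in KO controls and 1.43 and 0.73 FPKM in KO PTX. All 8 other libraries were below the WT controls, and *Usp18* had the largest log2 fold change of the members for PTX in WT, -0.93 ± 0.21 (edgeR adjusted p = 0.210, DESeq2 adjusted p = 0.00977). *Isg15*, the ubiquitin-like modifier itself, was at 7.67, 5.08 and 6.58 FPKM in WT controls, 6.16, 6.85 and 3.77 in WT PTX, 6.97, 5.51 and 4.62 in KO controls and 4.01 and 3.33 in KO PTX. The WT groups and the KO controls overlapped for *Isg15*, and the lowest levels were those of KO PTX 3 and WT PTX 3, followed by KO PTX 2.

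Other effectors were lower after PTX in WT mice in 9 of 9 tested genes, with 4 of them at an unadjusted p under 0.05. *Ifitm3* was at 46.1, 38.99 and 36.1 FPKM in WT controls, 30.7, 32.6 and 24.9 in WT PTX, 37.5, 32.98 and 30.3 in KO controls and 28.5 and 24.7 in KO PTX. The PTX libraries of each genotype lay below their own controls without overlap. The log2 fold change for PTX in WT was -0.47 ± 0.09 (edgeR adjusted p = 0.203, DESeq2 adjusted p = 0.00295), and reads can be shared with *Ifitm2*. *Bst2* encodes tetherin, which holds budding virus on the cell surface. It was at 11.33, 8.64 and 10.69 FPKM in WT controls, 6.66, 7.49 and 7.14 in WT PTX, 6.37, 6.15 and 6.49 in KO controls and 7.45 and 6.76 in KO PTX. The 8 libraries other than WT control were close together and below all WT controls. Its log2 fold change for PTX in WT was -0.53 ± 0.14 (edgeR adjusted p = 0.238, DESeq2 adjusted p = 0.0442).

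*Ifi27* and *Ifi27l2a* are neighbouring paralogs on chromosome 12 whose reads can be shared. *Ifi27* was at 77.8 to 89.8 FPKM in WT controls, 65.1 to 78.3 in WT PTX, 71.1 to 76.7 in KO controls and 70.3 and 48.4 in KO PTX. *Ifi27l2a* was at 15.9, 9.01 and 8.52 FPKM in WT controls, 8.09, 10.5 and 4.13 in WT PTX, 11.4, 6.10 and 6.38 in KO controls and 9.51 and 5.81 in KO PTX. For both genes the WT groups overlapped, and the spread of *Ifi27l2a* within each group was wide.

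**Figure D2:**
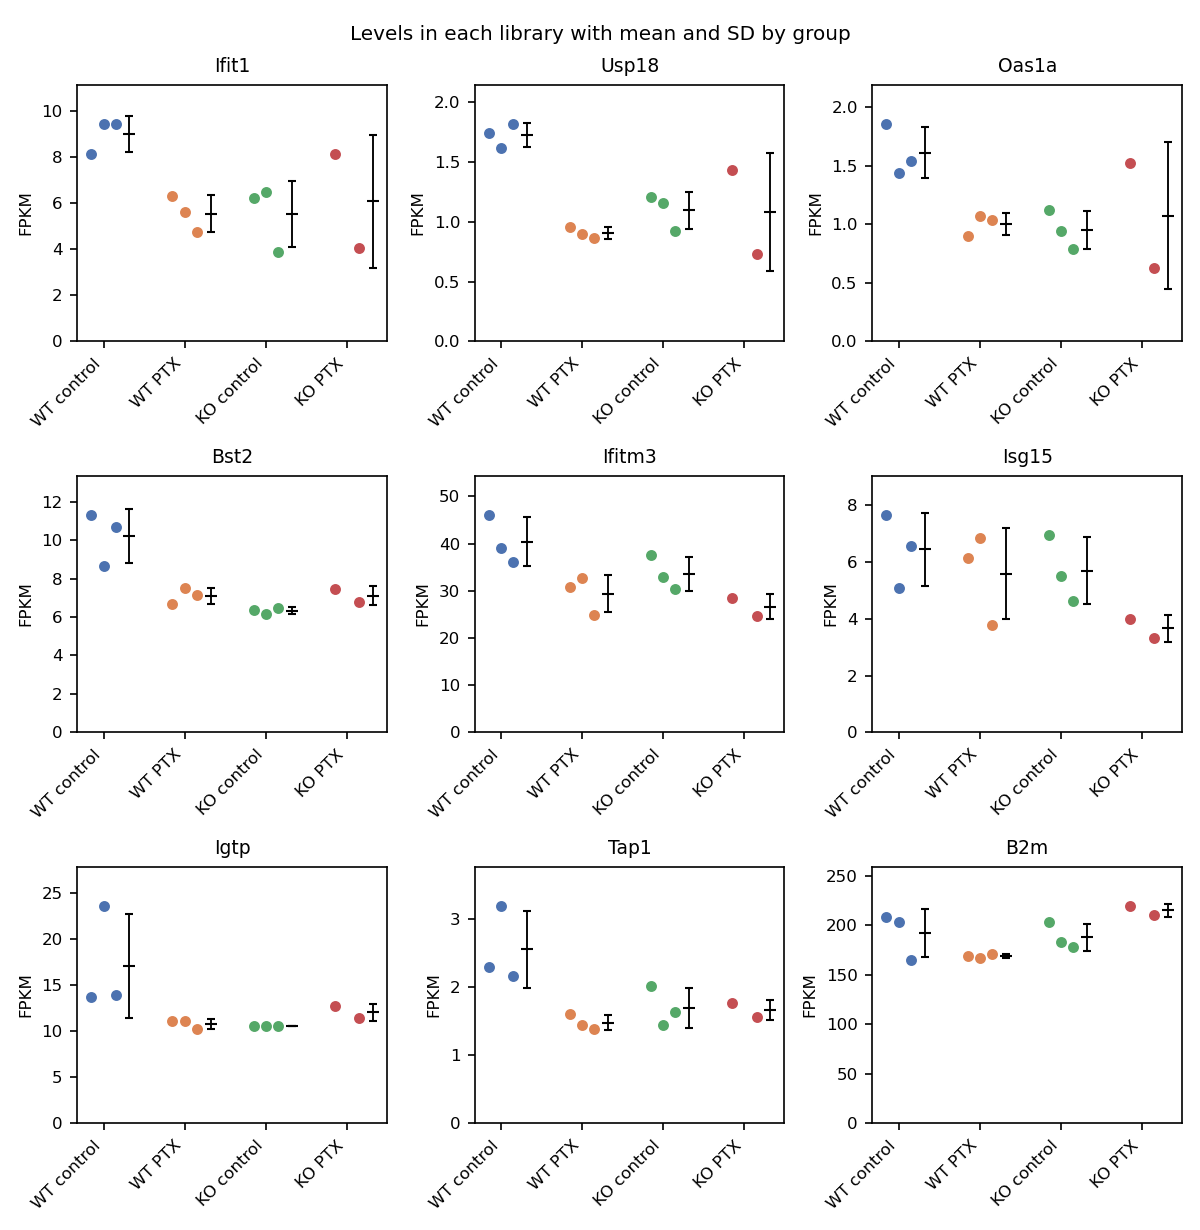
FPKM of 9 members in each library (points) by group, with the mean and SD of each group (black bars). WT control libraries lie above the other 8 libraries for *Usp18*, *Bst2*, *Igtp* and *Tap1*, whereas *B2m* is highest in the KO PTX libraries and *Isg15* is at 4.01 and 3.33 FPKM there.

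MHC class I genes were lower after PTX in WT in 6 of 6, with a median log2 fold change of -0.37. *Tap1*, which carries peptides into the endoplasmic reticulum, was at 2.30, 3.20 and 2.17 FPKM in WT controls, 1.60, 1.44 and 1.39 in WT PTX, 2.02, 1.44 and 1.64 in KO controls and 1.77 and 1.56 in KO PTX. The 3 WT controls lay above all other libraries, and the log2 fold change for PTX in WT was -0.78 ± 0.16 (edgeR adjusted p = 0.203, DESeq2 adjusted p = 0.00168). *Tap1* and *Psmb9* overlap on opposite strands, and whether the authors counted by strand is not given in the sources used here. The heavy chain *H2-D1* was at 101.7, 84.96 and 73.4 FPKM in WT controls, 68.7, 74.5 and 62.9 in WT PTX, 77.1, 71.3 and 77.8 in KO controls and 81.1 and 67.8 in KO PTX. WT control and WT PTX libraries of *H2-D1* overlapped by a single pair, and the log2 fold change was -0.34 ± 0.10 (edgeR adjusted p = 0.255, DESeq2 adjusted p = 0.0496), which was -0.22 without WT control 1. *H2-K1* was at 25.6 to 30.7 FPKM in WT controls, 19.4 to 24.98 in WT PTX, 21.5 to 29.8 in KO controls and 28.8 and 22.1 in KO PTX. These heavy chain genes and other class I genes are similar enough for reads to be split between them.

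*B2m* departed from the heavy chains. It was at 209, 203 and 165 FPKM in WT controls, 169, 167 and 172 in WT PTX, 203, 183 and 178 in KO controls and 220 and 210 in KO PTX. The KO PTX libraries were the highest of all 11, and WT PTX libraries lay within the range of WT controls. For KO against WT after PTX the log2 fold change of *B2m* was 0.37 ± 0.09 (edgeR adjusted p = 0.993, DESeq2 adjusted p = 0.257).

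Signalling genes and sensors had log2 fold changes of -0.39 to -0.11 for PTX in WT, against a median of -0.30 over all tested members. *Irf7* and *Stat2* were among the 16 members lower at an unadjusted p under 0.05, where 6.87% of all genes were lower. *Stat2* was at 11.6, 14.8 and 12.5 FPKM in WT controls, 11.6, 11.3 and 10.5 in WT PTX, 11.7, 12.4 and 11.1 in KO controls and 11.3 and 11.9 in KO PTX, and the groups overlapped. *Irf7*, the amplifier of type I interferon responses, was at 1.85, 1.79 and 1.87 FPKM in WT controls, 1.21, 1.51 and 1.48 in WT PTX, 2.20, 1.67 and 1.46 in KO controls and 1.55 and 1.48 in KO PTX. Its WT groups did not overlap, with a log2 fold change of -0.39 ± 0.17 (edgeR adjusted p = 0.371). *Trim25*, which activates the RNA sensor RIG-I, had 4.62 to 5.87 FPKM in WT controls, 4.22 to 4.91 in WT PTX, 4.70 to 4.75 in KO controls and 4.17 and 4.12 in KO PTX. *Ifih1* (MDA5) and *Irf9* stayed between 0.88 and 1.32 FPKM and between 3.33 and 4.30 FPKM in all libraries. *Dtx3l* and *Parp9*, partner proteins whose genes overlap on opposite strands, were at 1.96 to 2.70 FPKM and 1.42 to 2.27 FPKM over the 11 libraries. *Dtx3l* was at 1.99, 2.19 and 2.31 FPKM in WT controls and 2.33, 2.09 and 2.35 FPKM in WT PTX. No PARP or DTX gene reached an unadjusted p under 0.05 in this comparison.

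The GTPases were highest in WT control 2, and *Gbp2* depended on that library. *Igtp*, an immunity-related GTPase of vacuole defence, was at 13.7, 23.6 and 13.9 FPKM in WT controls, 11.1, 11.1 and 10.2 in WT PTX, 10.59, 10.53 and 10.55 in KO controls and 12.7 and 11.4 in KO PTX. *Gbp2*, a guanylate-binding protein induced by interferon gamma, was at 3.67, 12.9 and 4.62 FPKM in WT controls, 4.73, 4.49 and 4.19 in WT PTX, 4.62, 4.57 and 4.68 in KO controls and 4.55 and 5.99 in KO PTX. WT control 2 held the extreme value of both genes, and only for *Igtp* did the other WT controls also lie above all other groups. The log2 fold change for PTX in WT was -0.66 ± 0.17 for *Igtp* (edgeR adjusted p = 0.234, DESeq2 adjusted p = 0.00950) and -0.65 ± 0.38 for *Gbp2* (edgeR adjusted p = 0.456). Without WT control 2 they became -0.37 and 0.13. The *Igtp* row overlaps *Irgm2* on the same strand, so reads of the 2 genes may be mixed.

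WT control 2 was at least 1.5 times the next library for *Gbp2* (2.16 times), *Igtp* (1.70 times) and *Irgm1* (1.57 times), 3 of 35 members, and for 103 of all genes tested (0.683%). No other library exceeded the next by this factor for any tested member. *Gbp3* and *Gbp7* were at 5.24 and 3.30 FPKM in WT control 2, against at most 3.93 and 2.47 FPKM elsewhere. Among 32 tested further interferon-stimulated genes, *Mx2*, *Cxcl10*, *Iigp1*, *Ifi47* and *Gbp6* exceeded 1.5 times the next library in WT control 2. *Ifi47* was at 3.84 FPKM there, against 0.79 to 1.49 FPKM in the other 10 libraries. The chemokine *Cxcl10* was at 3.76 FPKM, against 0.74 to 1.86, and the DNA sensing adaptor *Sting1* at 6.42 FPKM, against 1.46 to 3.01. *Socs3*, a feedback inhibitor of cytokine signalling, was at 7.07 FPKM, against 2.02 to 4.58. Neutrophil markers were also high in this library, with a summed level of 83.7 FPKM against 8.04 to 73.9 FPKM elsewhere, and skeletal muscle markers were at 13.3 FPKM against 2.86 to 535 FPKM elsewhere. Their part in the result was not tested. Without WT control 2, 29 of 35 members remained below 0 for PTX in WT, with a median of -0.26, and 17 were lower at an unadjusted p under 0.05, against 7.1% of all genes in that fit.

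**Figure D3:**
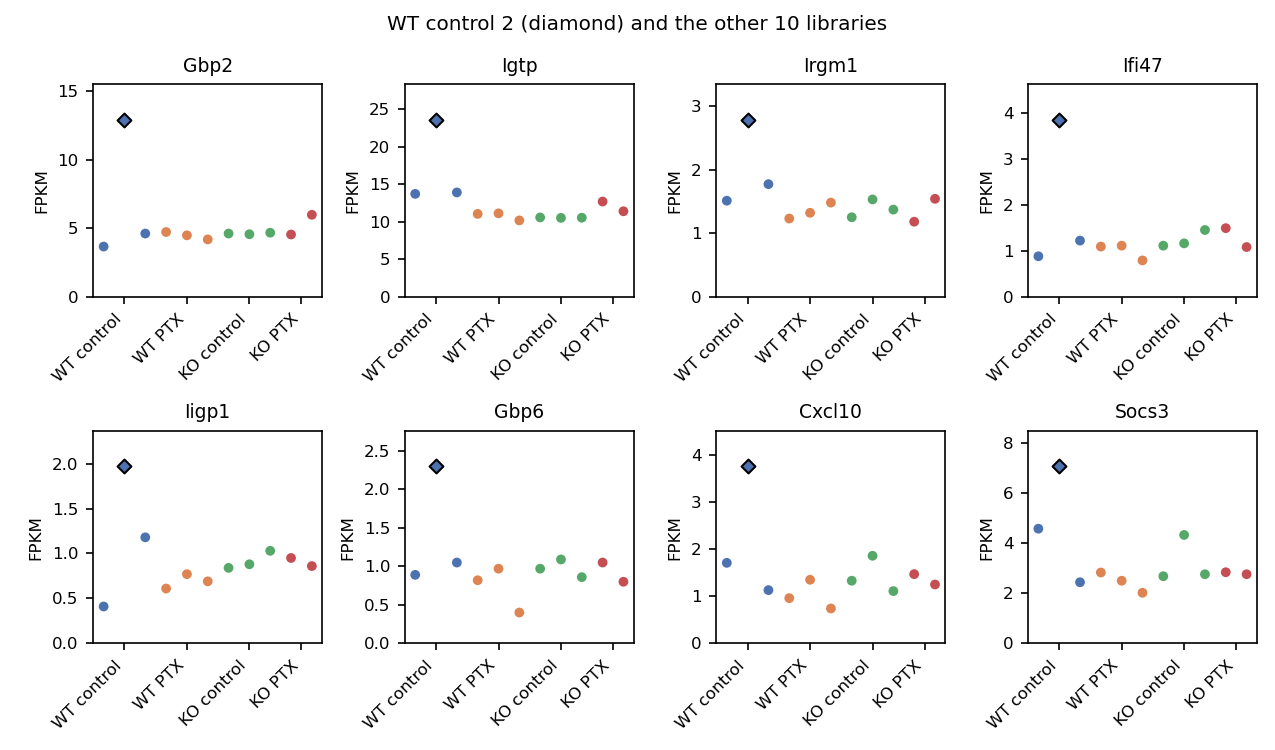
FPKM in each of the 11 libraries for the GTPases *Gbp2*, *Igtp* and *Irgm1*, for *Ifi47*, *Iigp1*, *Gbp6* and *Cxcl10* of the further interferon-stimulated genes, and for *Socs3*. WT control 2 (diamond) is at 12.9 FPKM for *Gbp2* and 3.84 FPKM for *Ifi47*, while the other 10 libraries reach 5.99 and 1.49 FPKM.

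The comparison of KO control with WT control asks what loss of *Gpr37l1* does without PTX. It uses the same WT controls as the PTX comparison, so the values are set side by side and their likeness is no independent evidence. Again 33 of 35 members (94.3%) were below 0, against 49.2% of all genes, with a median log2 fold change of -0.19, against 0.00 over all genes. With edgeR 0 members were called (0.00663% of all genes), at adjusted p of 0.657 to 0.960. At an unadjusted p under 0.05, 11 members (31.4%) were lower and 0 higher, against 3.58% and 3.96% of all genes. Without KO control 2, 7 were lower, against 2.6% of all genes in that fit. DESeq2 called *Bst2*, *Ifit1* and *Igtp*, 3 members (8.57%), all lower, against 0.152% of all genes. It called 0 members without KO control 1, *Ifit1* alone without KO control 2, *Igtp* alone without KO control 3 and *Bst2* alone without WT PTX 1. The share of all genes called by DESeq2 in these fits is not given here. The groups did not overlap for 9 members (25.7%), all lower, against 4.73% of all genes, and for 0 higher, against 4.55%. Without KO control 1 there were 14, a number that cannot fall when a library is left out, and the share of all genes for it is not given here.

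The members with the largest differences in the KO controls were *Oas1a*, with a log2 fold change of -0.77 ± 0.27, and *Ifit1*, with -0.75 ± 0.19 (edgeR adjusted p = 0.657 for both). *Bst2* had -0.69 ± 0.14 (DESeq2 adjusted p = 0.0114) and *Igtp* -0.68 ± 0.17 (DESeq2 adjusted p = 0.0230), which was -0.40 without WT control 2. Without WT control 3 the value of *Ifit1* was -0.49. *Usp18* had -0.66 ± 0.21 and *Tap1* -0.58 ± 0.16, both short of the DESeq2 threshold (adjusted p = 0.296 and 0.123). In this comparison *H2-K1*, *B2m*, *Irf7* and *Ifih1* had log2 fold changes between -0.06 and -0.03.

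**Figure D4:**
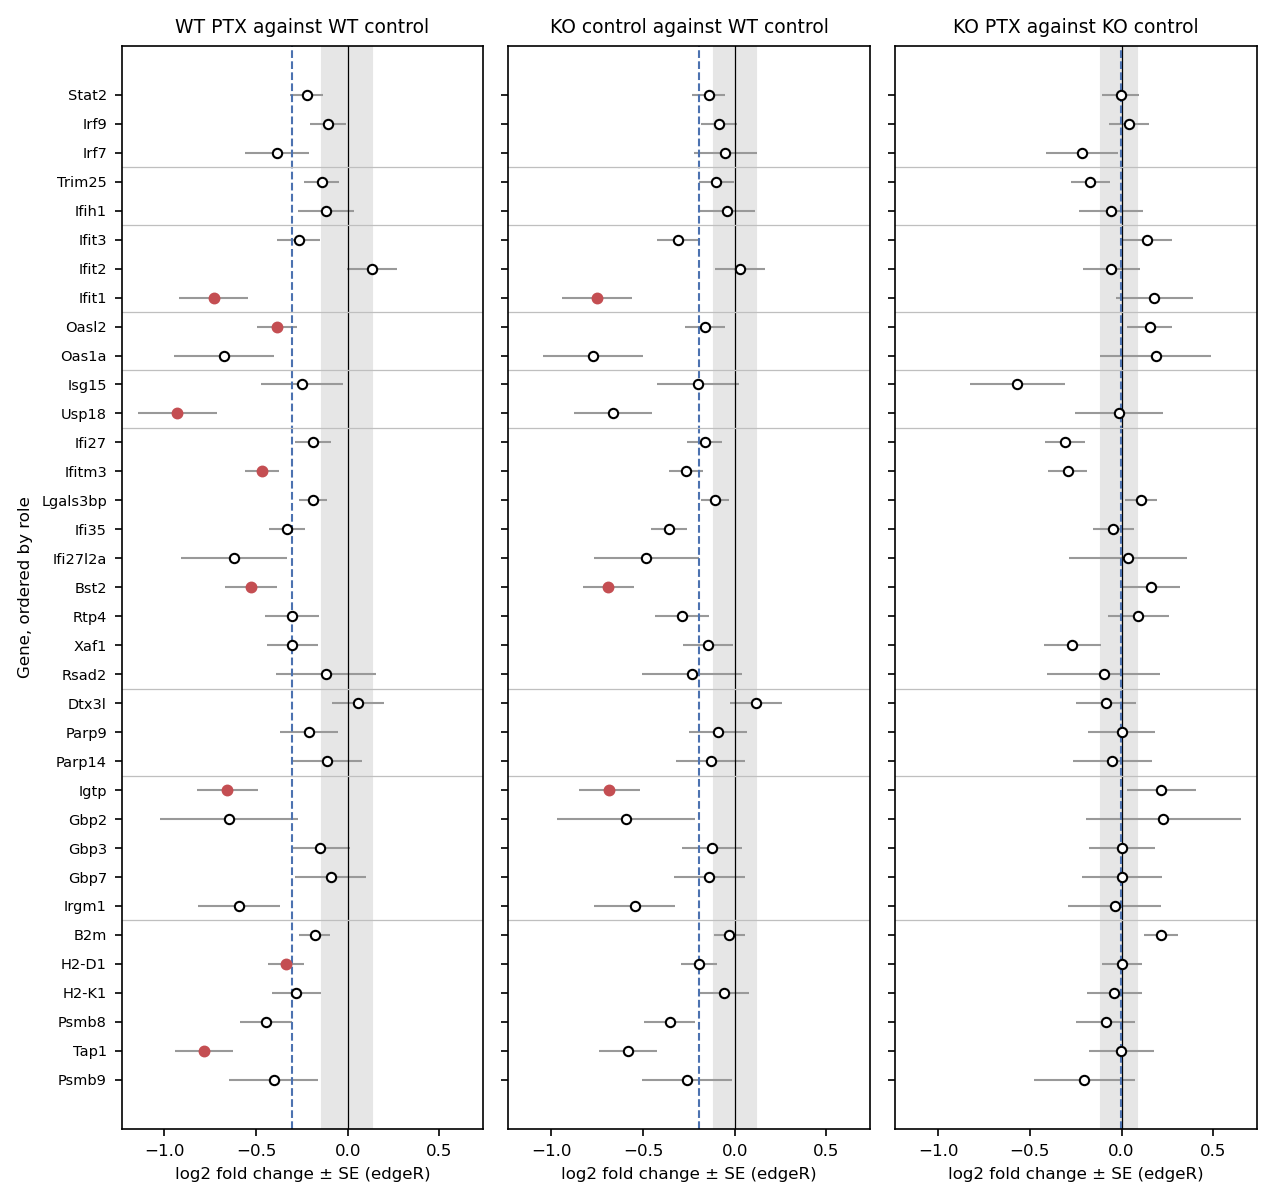
Log2 fold change with SE (edgeR) of the 35 tested members, by role, for WT PTX against WT control, KO control against WT control and KO PTX against KO control. Filled red points have a DESeq2 adjusted p under 0.05 (8, 3 and 0 members), the dashed line is the median of the members (-0.30, -0.19 and 0.00) and the grey band is the interquartile range over all genes tested.

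PTX in KO mice gave no common direction. The log2 fold change was below 0 for 20 of 35 members (57.1%), against 52.7% of all genes, and the median was 0.00, against -0.01. The median was 0.06 without KO PTX 2 and -0.06 without KO PTX 3. With edgeR 0 members were called (0.00663% of all genes), with DESeq2 0 (0.186%), and at an unadjusted p under 0.05 there were 3 (8.57%, against 4.32%): *Ifi27*, *Ifitm3* and *B2m*. That number was 0 without KO control 3, where 1.77% of all genes were lower, against 2.57% with all libraries. The groups did not overlap for 5 lower members (14.3%, against 10.4%), *Ifi27*, *Ifitm3*, *Isg15*, *Trim25* and *Xaf1*, and for 4 higher members (11.4%, against 11.3%), *B2m*, *Bst2*, *Igtp* and *Rtp4*. These shares were near the background. *Isg15* had the largest log2 fold change, -0.57 ± 0.26 (edgeR adjusted p = 0.999). With 2 libraries, the KO PTX values of *Ifit1*, *Usp18* and *Oas1a* differed between each other by more than the WT PTX libraries did.

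KO PTX and WT PTX libraries differed in 0 members with edgeR (0.0133% of all genes called) and 0 with DESeq2 (0.0597%), while 3 members (8.57%, against 3.55%) had an unadjusted p under 0.05. These were *Ifi27*, lower in KO, and *B2m* and *Oasl2*, higher in KO. The groups did not overlap for 2 lower members (5.71%, against 9.58%), *Ifit2* and *Trim25*, and 3 higher members (8.57%, against 10.7%), *B2m*, *Igtp* and *Oasl2*. The median log2 fold change was 0.06, against -0.01 over all genes, but it was -0.01 without KO PTX 3 (19 of 35 members below 0) and 0.09 without KO PTX 2.

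The difference of the PTX effect between genotypes was tested directly, as the PTX effect in KO minus that in WT. No member passed with edgeR (0.00663% of all genes) or DESeq2 (0.0795%), and edgeR adjusted p were at least 0.724. At an unadjusted p under 0.05 there were 10 members (28.6%), all above 0, against 6.3% of all genes in either direction, and the median was 0.24, against -0.01. *Usp18* had the largest difference, 0.92 ± 0.32, and *Ifit1* had 0.91 ± 0.28 on the log2 scale, but without KO PTX 2 these were 0.44 and 0.51. *Igtp* had 0.87 ± 0.25, which was 0.58 without WT control 2, and *Bst2* had 0.69 ± 0.21. The difference contains the WT controls with the opposite sign to the PTX comparison in WT, so a high WT control enters both. Over both genotypes, the PTX effect was called in 0 members with edgeR (0.0133% of all genes) and in 1 with DESeq2 (2.86%, against 0.829%), *Ifitm3*, at a log2 fold change of -0.38 ± 0.07 (edgeR adjusted p = 0.246, DESeq2 adjusted p = 0.00144). At an unadjusted p under 0.05 there were 10 members (28.6%, against 9.36%), all lower. That number was 5 without KO control 1, 5 without WT PTX 1 and 6 without WT PTX 2. In these fits 4.52%, 4.02% and 5.57% of all genes were lower, against 5.53% with all libraries. The median log2 fold change of the members was -0.162 without KO PTX 2 and -0.155 without KO PTX 3, against -0.167 with all libraries. The KO effect over both treatments was called in 0 members by edgeR (0.0133%) and DESeq2 (0.179%). At an unadjusted p under 0.05 there were 5 members (14.3%, against 3.75%). *Bst2*, *Ifi27*, *Ifi35* and *Ifitm3* were lower, and *B2m* was higher (log2 fold change 0.17). Without WT PTX 2 there were 3, all lower, where 1.56% of all genes were lower, against 1.93% with all libraries. The median of the members was -0.08 without KO PTX 2 and -0.13 without KO PTX 3, against -0.11 with all libraries.

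Members with and without the ISRE core had medians of similar size for PTX in WT. For PTX in WT, the 15 tested members with a core had a median log2 fold change of -0.27, and 15 of 15 were below 0. The 14 tested members with a promoter entry and no core had a median of -0.32, and 12 of 14 were below 0. For KO in control the medians were -0.27 and -0.13. The difference between these sets was not tested.

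Interferons themselves were at or near 0. Of 10 ligand genes listed, 5 were in the table (*Ifnb1*, *Ifna2*, *Ifna5*, *Ifnk* and *Ifng*), and *Ifna1*, *Ifna4*, *Ifne*, *Ifnl2* and *Ifnl3* were not analysed here. *Ifnb1* had 0.09 FPKM in KO control 3 and *Ifng* 0.22 FPKM in KO PTX 3 and 0.03 FPKM in WT control 3, and both were listed at 0 in all other libraries. Receptors were present at steady levels. *Ifnar1* and *Ifnar2*, which form the type I receptor, were at 7.90 to 10.4 FPKM and 5.57 to 7.13 FPKM over the 11 libraries, and *Ifngr1* and *Ifngr2* of the interferon gamma receptor at 8.92 to 11.6 and 13.9 to 17.4 FPKM. The 6 receptor genes summed to 57.7 to 59.1 FPKM in WT controls and 54.5 to 60.8 FPKM in the other libraries, and 0 of 5 tested receptor genes had an unadjusted p under 0.05 for PTX in WT or KO in control.

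Lists of related genes that are no members were read for the same comparisons, and edgeR called 0 genes of each. Of all genes, 6.87% were lower and 6.59% higher for PTX in WT at an unadjusted p under 0.05, and DESeq2 called 1.1% lower. Of 32 tested further interferon-stimulated genes, 27 were below 0 for PTX in WT, with a median log2 fold change of -0.22. In this list 5 genes were lower and 1 higher at an unadjusted p under 0.05, and DESeq2 called *Ly6e* (-0.40 ± 0.10) and *Gbp6* (-0.98 ± 0.31), both lower. Of 15 further MHC class I pathway genes, 11 were below 0, 5 were lower and 0 higher at an unadjusted p under 0.05, and DESeq2 called the transporter subunit *Tap2* (-0.44 ± 0.11), the immunoproteasome subunit *Psmb10* (-0.43 ± 0.10) and *H2-Q4* (-0.55 ± 0.12), all lower. Of 4 tested negative regulators, DESeq2 called *Socs3* (-0.88 ± 0.27), whose highest library was WT control 2. Of 9 tested interferon signalling genes, 2 were lower and 2 higher at an unadjusted p under 0.05, and of 9 tested nucleic acid sensing genes 2 were lower and 1 higher, with 0 called by DESeq2 in each list. For PTX in KO, 0 genes of these lists were lower at an unadjusted p under 0.05, 1 further interferon-stimulated gene was higher, and DESeq2 called 0. Of all genes, 4.32% had an unadjusted p under 0.05 for PTX in KO, and DESeq2 called 0.186%.

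Macrophage markers were also highest in the WT controls. Summed over 10 markers, they were at 36.6 to 47.2 FPKM in WT controls, 25.5 to 30.7 in WT PTX, 31.8 to 35.6 in KO controls and 27.9 and 33.6 in KO PTX, so that the WT controls lay above the other 8 libraries. Of 9 tested markers, 9 were below 0 for PTX in WT with a median log2 fold change of -0.59, 8 had an unadjusted p under 0.05 and DESeq2 called 5, *Adgre1*, *Csf1r*, *Mrc1*, *C1qc* and *C1qb*. Of all genes, 6.87% were lower for PTX in WT at an unadjusted p under 0.05, and DESeq2 called 1.1% lower. For KO in control 8 of 9 markers were below 0 and 4 were lower at an unadjusted p under 0.05, against 3.58% of all genes. DESeq2 called 0 of the markers, against 0.152% of all genes lower. For PTX in KO, 7 of 9 markers were below 0 with a median of -0.14. At an unadjusted p under 0.05, 2 were lower, against 2.57% of all genes, and DESeq2 called 0, against 0.186%. Over both genotypes 9 of 9 were below 0 for PTX, and DESeq2 called *Csf1r*, *Mrc1* and *C1qc*, where 0.829% of all genes were called. *C1qc*, a complement subunit made by macrophages, was at 5.90, 6.50 and 5.61 FPKM in WT controls and 2.66 to 4.76 FPKM in the other 8 libraries. *Ptprc*, present on all leukocytes, was at 0.12 to 0.32 FPKM throughout. Their part in the result was not tested.

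For the summed markers of other immune cells, the WT controls overlapped with the other libraries. MHC class II genes, which mark antigen-presenting cells, summed to 65.1 to 83.7 FPKM in WT controls, 66.3 to 66.6 in WT PTX, 71.99 to 81.2 in KO controls and 58.7 and 89.1 in KO PTX. The WT PTX libraries lay below all KO controls and within the range of the WT controls. Of 6 tested MHC class II genes, 6 were below 0 for PTX in WT, with a median log2 fold change of -0.11, and 2 for KO in control. Neutrophil markers summed to 30.5 to 83.7 FPKM in WT controls, 10.03 to 54.9 in WT PTX, 8.04 to 73.9 in KO controls and 12.04 and 10.64 in KO PTX. All 6 tested neutrophil markers were below 0 for PTX in WT, with a median of -0.99 and 0 at an unadjusted p under 0.05. All 6 were also below 0 for KO in control, with a median of -0.82 and 1 at an unadjusted p under 0.05. T and NK cell markers summed to 0.87 to 1.56 FPKM in 10 libraries and 2.87 FPKM in KO PTX 3, where *Cd3d* was at 0.31 FPKM. B cell markers summed to 0.75 to 2.83 FPKM over all libraries. Spinal cord markers summed to 8.31 and 15.8 FPKM in the KO PTX libraries, above all other libraries (2.16 to 7.53 FPKM). For PTX in KO, the 3 tested spinal cord markers had a median log2 fold change of 2.12. Of these, 2 were higher at an unadjusted p under 0.05, against 4.32% of all genes in either direction, and DESeq2 called 0. Skeletal muscle markers ranged from 2.86 to 535 FPKM over all libraries. Red cell markers (71.5 to 294 FPKM) were higher in all WT controls than in both KO PTX libraries, and endothelial markers (20.1 to 25.6 FPKM) higher in all KO controls than in both KO PTX libraries. WT controls and WT PTX libraries overlapped for both lists, and DESeq2 called 0 of them for PTX in WT. All 6 muscle markers were below 0 for PTX in WT, with a median log2 fold change of -2.83 and 0 at an unadjusted p under 0.05. SGC markers (328 to 471 FPKM), sensory neuron markers (1791 to 2327 FPKM) and myelinating Schwann cell markers (1218 to 2147 FPKM) were high in all libraries, so the defining markers of the labelled tissue were present. For PTX in WT, DESeq2 called 1 SGC marker and 1 sensory neuron marker lower and 1 spinal cord marker higher. The part of these differences in the results was not tested.

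**Figure D5:**
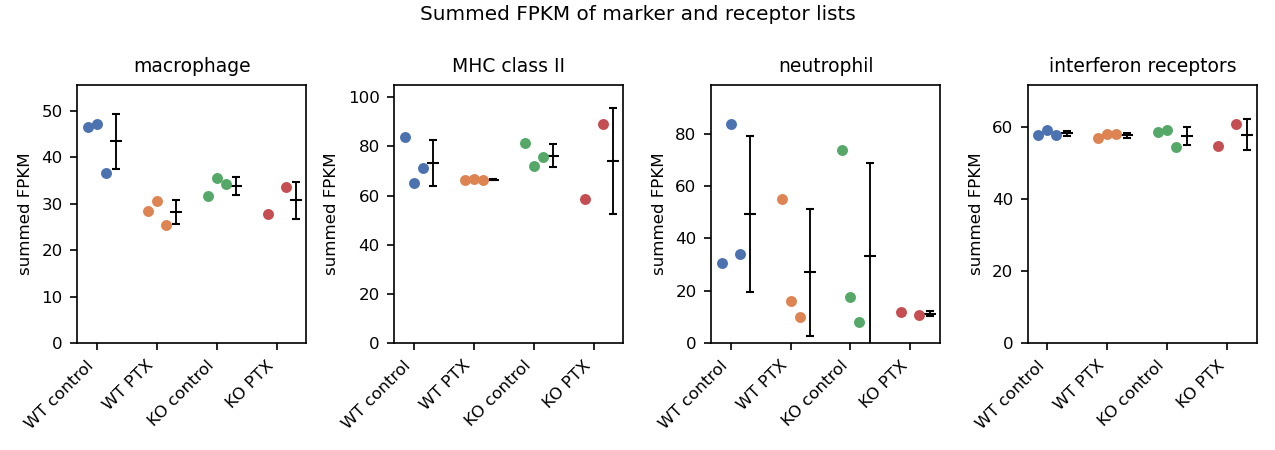
Summed FPKM in each library (points) by group, with the mean and SD (black bars, cut at 0), for 10 macrophage markers, 7 MHC class II genes, 6 neutrophil markers and 6 interferon receptor genes. Macrophage markers reach 36.6 to 47.2 FPKM in WT controls and at most 35.6 FPKM elsewhere, whereas the receptor sums stay between 54.5 and 60.8 FPKM.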

How the data were processed

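The mouse DRG data were 1 table of 36670 genes for poly(A) RNA-Seq. In it, FPKM values (scaled for gene length and library size) and estimated counts per gene, not normalized, were deposited by the authors for 11 libraries. The submitters' processing notes name cutadapt, FastQC, HISAT2, StringTie and mm10, without versions. The counts were whole numbers but 1369 genes had a count of 4 in WT control 1, against 573 with 3 and 334 with 5, so they were handled as estimated counts and rounded. How reads shared between overlapping or near-identical genes were counted is not given in the sources used here.

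Groups, sex and replicate numbers came from the labels. The titles number the KO PTX libraries 1 and 2 and the descriptions 2 and 3, and the latter were used. A differential expression test by the authors is not given in the sources used here. Counts were fitted with edgeR 4.0.16 (R 4.3.3, TMM, quasi-likelihood test), all 11 libraries in 1 model of group and sex, over 15087 genes whose FPKM averaged 0.5 or more. P-values were adjusted by Benjamini-Hochberg over all of them, with a threshold of 0.05. SE was derived from the log2 fold change and the F statistic. Alternatives were DESeq2 1.42.0, limma 3.58.1 on log2(FPKM + 1) or log2(FPKM + 0.1), other scalings, filters and covariates, and each library left out. DESeq2 refits and counts of non-overlapping groups with each library left out were added after seeing the data. All 3 tools were tested on simulated data. Promoters were read from RefSeq (GRCm38.p6). Library totals were 52735648 to 80348732, and each group held 2 or 3 libraries, which limits precision.

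The members, role groups, and marker and pathway lists were chosen with earlier results of these data known. All members are named. Levels per library, or their range, are given for the member of each role group with the highest mean and that with the largest absolute log2 fold change for PTX in WT, for members called by edgeR or DESeq2 and for members with near-identical copies. Also named are *Gpr37l1*, defining cell type markers, and pathway genes past the threshold or, where none was, ligands and receptors. *Cxcl10*, *Ifi47*, *Sting1* and other genes named for WT control 2 were chosen after their values were seen.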

Additional observations from a re-analysis of the deposited data

Results flagged for a closer look

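For *Bst2* and *Igtp* the PTX libraries lay on opposite sides of their controls in the genotypes. All 3 WT PTX libraries were below all WT controls, and both KO PTX libraries were above all KO controls. The KO part is near the background, as 11.4% of members and 11.3% of all genes were higher without overlap for PTX in KO. The share of all genes with both parts is not given here. For both genes the WT controls lay above the other 8 libraries, and they enter the WT effect and the difference alike. On the log2 scale the PTX effect in KO minus that in WT was 0.69 ± 0.21 for *Bst2* and 0.87 ± 0.25 for *Igtp*. The difference itself was tested as an interaction term and did not pass with edgeR (adjusted p = 0.724 for both) or DESeq2 (adjusted p = 0.388 and 0.147).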

How the results depend on the processing

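With edgeR or limma, 0 members passed in each of the 7 comparisons under every alternative run (log2(FPKM + 1) or log2(FPKM + 0.1) in limma, other normalizations, filters and covariates, the groups of a comparison alone, and each library left out). DESeq2 called 8 members for PTX in WT, 3 for KO in control and 1 for PTX over both genotypes, all lower, and the cause of the difference between the tools was not tested. Leaving out single libraries, the DESeq2 count ran from 1 to 8 for PTX in WT and from 0 to 4 for KO in control. The number of members lower without overlap ran from 12 to 19 and from 10 to 14. By its rule that number cannot fall when a library is left out, and nor can the share of all genes, so these ranges are no measure of stability. At an unadjusted p under 0.05, counts of members in either direction changed with the setting, and the share of all genes lower is given beside them. For PTX over both genotypes 10 became 6 without sex in the model (5.53% and 5.18%). For KO in PTX 3 became 5 with the groups of the comparison alone (1.74% and 2.7%). For PTX in KO 3 became 5 with edgeR's own filter (2.57% and 2.62%). For KO over both treatments 5 became 8 with DESeq2 (1.93% and 2.35%). On the log2(FPKM + 1) scale fold changes of low genes were smaller, as for *Usp18* for PTX in WT at -0.52. Of 25 fold changes of single genes, 1 reversed in 520 alternatives, *Gbp2* for PTX in WT, which was 0.13 without WT control 2 and whose range over the libraries left out began at -0.96. The same replicate numbers appear in several groups. Of 15 same-numbered pairs, 5 had a correlation of deviations over 0.1 (mean 0.0525, range -0.228 to 0.234, against a mean of -0.0262 for other pairs). The numbers were read as names, but these values cannot decide whether same-numbered libraries were paired. Pairs of replicate 3 libraries also share the female label. With a replicate block 0 members were called in each comparison, with 1 or 2 genes called in all, as without it. Groups of 2 or 3 libraries limit these results, and the effect of sequencing depth was not tested.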
